A study of Mus musculus with 14 samples.

Results

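Myosin light chain kinases and the myosin phosphatase set how much of the myosin regulatory light chain carries phosphate, and 8 genes of this system were followed through pressure overload and gene therapy in the mouse ventricle. The genes were the kinases Mylk4, Mylk3, Mylk2 and Mylk, the ventricular regulatory light chain Myl2, and the phosphatase genes Ppp1r12a, Ppp1r12b and Ppp1cb, out of 24972 listed genes. They were chosen by name and function, with earlier results of these data known. Mylk4 was picked because its fall with overload differed between the vectors. The 4 group means of Mylk4 therefore chose it, and its values are given as a description with no test. All 8 genes had values above 0, and 7 passed the filter for testing (normalised values of 10 or more in 3 samples or more), as did 13212 genes in all. Those 7 were above 10 in every library, whatever its group, and Mylk2 did not pass.

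The libraries were made from polyadenylated RNA of ventricles of male C57BL/6N mice, which were 9 to 10 weeks old at surgery. TAC, trans-aortic constriction, constricts the aorta so that the left ventricle must pump against a raised pressure, and sham surgery was its control. After 2 weeks mice received 1e12 genomes of an AAV2/9 virus by tail vein, and hearts were taken 8 weeks after surgery, 6 weeks after the virus. The groups were TAC+JP2NT (4 libraries), Sham+JP2NT (3), TAC+GFP (4) and Sham+GFP (3), so that every animal carried a vector and none was free of virus. JP2NT is the N-terminal part of junctophilin-2, the protein that holds the cell membrane close to the sarcoplasmic reticulum in cardiomyocytes, and GFP is a control protein. TAC mice had been selected by echocardiography for an ejection fraction of 40 to 60% and sham mice for normal function, and which promoter drove the vectors is not given in the sources used here. Nor is it given whether each library came from a separate mouse, so p-values measure the spread between these libraries, which may be technical in part.

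The deposited values summed to 9970769 to 11939822 per library, from about 8650195 to 14460869 reads judged by what a single read is worth in each library. The first 2 replicates of Sham+JP2NT were nearly as alike as repeated counts of a single library: over genes with 50 reads or more, their variance was 1.33 times that of counting alone, against 2.38 to 26.6 times for the 17 other pairs within groups. They were averaged and counted as 1 sample, so Sham+JP2NT has n = 2 in every mean and test. Nppa and Myh7, 2 genes that overload is known to raise, were higher in TAC hearts under both vectors, Myh7 by 17.7-fold under JP2NT and 36.8-fold under GFP. The libraries carrying JP2NT showed no excess of Jph2 RNA: the normalised value was 6054 to 6757 in TAC+JP2NT, 6820 to 7143 in Sham+JP2NT, 5902 to 6628 in TAC+GFP and 7667 to 8185 in Sham+GFP. Whether reads from the vector could be counted in Jph2 is not given in the sources used here, so this gene does not check the vector label. TAC+JP2NT replicate 4 stood apart within its group, with a Myh6 value of 336000 against 183300 to 227400 in the other 3 libraries. In TAC+GFP, replicate 3 stood apart. Over genes with 50 reads or more, its pairs within the group varied by 18.8 to 25.5 times counting alone. The pairs without it varied by 4.31 to 12.7 times.

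Phosphorylation of the regulatory light chain moves myosin heads away from the thick filament and raises force at a given calcium level. In ventricular muscle this is the work of a dedicated kinase encoded by Mylk3, while Mylk2 encodes the skeletal muscle kinase and Mylk the smooth muscle and non-muscle kinase, both activated by calcium and calmodulin. Mylk4 encodes a less studied member of the family that is present in heart. Phosphate is removed by a phosphatase made of the catalytic subunit PP1 beta (Ppp1cb) and a targeting subunit, MYPT1 (Ppp1r12a) or the striated muscle form MYPT2 (Ppp1r12b). RhoA-activated ROCK kinases are known to inhibit this phosphatase by phosphorylating MYPT1.

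The substrate is shown first, since the kinases and the phosphatase act on serines near its start. The following are the first 26 codons of the coding sequences of the ventricular (Myl2), atrial (Myl7), smooth muscle (Myl9) and non-muscle (Myl12a) regulatory light chains, taken from GENCODE M21 transcripts. Capitals mark serine codons.
Myl2: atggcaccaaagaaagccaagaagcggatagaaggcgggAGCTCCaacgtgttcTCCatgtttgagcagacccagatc
Myl7: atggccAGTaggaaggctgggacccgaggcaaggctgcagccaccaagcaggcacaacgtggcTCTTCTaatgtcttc
Myl9: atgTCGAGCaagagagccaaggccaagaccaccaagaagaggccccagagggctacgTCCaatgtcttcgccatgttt
Myl12a: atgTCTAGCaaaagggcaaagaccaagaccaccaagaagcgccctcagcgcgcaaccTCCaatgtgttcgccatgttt
Counting the start codon as 1, Myl2 has serine codons at 14, 15 and 19, of which 14 and 15 encode the known phosphorylation sites of the mouse protein. Myl7 has an adjacent pair at 22 and 23. Myl9 and Myl12a have a single serine codon at 20, the known site of smooth muscle and non-muscle light chains, after a pair at 2 and 3.

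The 300 bases around the annotated start of Mylk4 are shown because this gene had the largest differences among the members that passed the filter, and because JP2NT has been described in mouse as a repressor of MEF2-driven genes. The window lies at chr13:32783915-32784214 on the minus strand (RefSeq, GRCm38.p6), with 250 bases before and 50 after the start. Capitals mark a match to the MEF2 consensus.
Mylk4 start: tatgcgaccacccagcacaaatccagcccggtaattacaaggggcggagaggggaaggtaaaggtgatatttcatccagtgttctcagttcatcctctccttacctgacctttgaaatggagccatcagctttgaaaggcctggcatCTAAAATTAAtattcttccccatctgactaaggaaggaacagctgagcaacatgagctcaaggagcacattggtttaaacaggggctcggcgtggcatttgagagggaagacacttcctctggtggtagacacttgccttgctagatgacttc
The match CTAAAATTAA begins 103 bases before the start. A MEF2 match was held by 3.19% of 32851 mouse windows of this length, and a match is a description, not a binding site. RefSeq gives 10 such windows for 7 of the 8 genes, but some of them, those of Myl2 among them, lie outside or well inside the gene as GENCODE places it, so the members' windows were not compared. The GATA motif AGATAA, in 11.2% of all windows, and the M-CAT motif CATTCC, in 14.7%, were also searched on both strands and had no match in the Mylk4 window. GENCODE lists 2 other Mylk4 starts supported by CAGE, 7415 and 7551 bases away, and which start these hearts used cannot be read from gene values.

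Mylk4 showed the widest range among the 7 genes that passed the filter. It lies on chromosome 13 at 32700834 to 32783954, minus strand (mm10), in 12 exons of its principal transcript. Its normalised values were 1857, 1896, 1979 and 2328 in TAC+JP2NT hearts, against 4442, 4556 and 4456 in Sham+JP2NT hearts. Under GFP they were 1038, 1147, 1018 and 1102 in TAC hearts, against 4444, 4356 and 4510 in Sham hearts. Neither pair of groups overlapped, and the TAC+JP2NT libraries lay between the TAC+GFP libraries and both sham groups. Of the sham mean of the same vector, TAC hearts held 41.5 to 52% under JP2NT and 22.9 to 25.9% under GFP. The log2 difference between TAC and sham was -1.16 under JP2NT, a 2.23-fold lower level, and -2.04 under GFP, a 4.12-fold lower level. TAC+JP2NT hearts had 1.87 times the Mylk4 level of TAC+GFP hearts, a log2 difference of 0.90, while the sham groups differed by 0.01 on the log2 scale. These values are those that chose the gene. Over 22 alternative ways of processing, the log2 difference ranged from -1.23 to -1.12 under JP2NT and from -2.09 to -2.02 under GFP. TAC+JP2NT replicate 4, with the highest Mylk4 value of its group, was also the library with the highest Myh6 value among TAC hearts, and the part of this library's makeup in its Mylk4 value was not tested.

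**Figure D1:**
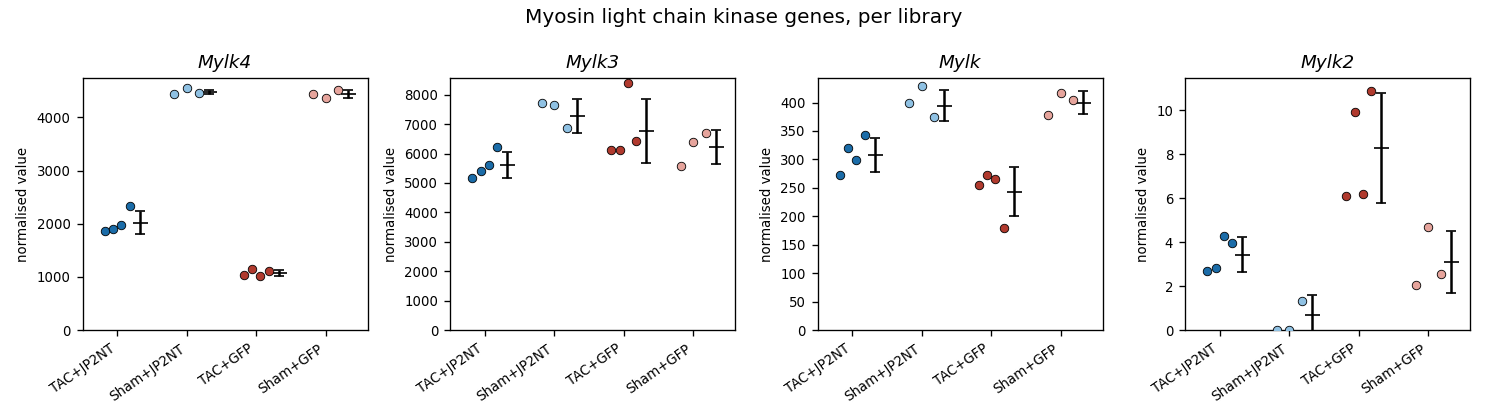
Normalised values (linear scale, from 0) of the 4 myosin light chain kinase genes, with a point for each library, the group mean as a dash and the SD as a bar, groups in the order TAC+JP2NT, Sham+JP2NT, TAC+GFP, Sham+GFP. TAC+JP2NT libraries span 1857 to 2328 for Mylk4, and TAC+GFP libraries 1018 to 1147, both below the sham libraries at 4356 to 4556, while Mylk3 lies between 5168 and 8393 throughout.

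Among the other members, some passed the test with overload under each vector. In TAC+JP2NT against Sham+JP2NT hearts, 2 of the 6 members tested passed the threshold, an adjusted p under 0.05 (limma, Benjamini-Hochberg over all genes tested). Ppp1r12a was higher and Mylk3 lower. Over all genes, 31.9% were called in this comparison, 16.1% higher and 15.8% lower. In TAC+GFP against Sham+GFP hearts, 4 of the 6 passed, Ppp1r12a and Ppp1cb being higher and Mylk and Ppp1r12b lower, where 48.1% of all genes were called, 23.3% higher and 24.8% lower. With 6 genes against these backgrounds, neither share is read as a result about the members. A gene called under one vector and not under the other is not thereby shown to differ between them, and the test of that difference, the interaction of surgery and vector, called none of the 6 members, where it called 0.0757% of all genes, 0.0378% in each direction. At an unadjusted p under 0.05, 2 of the 6 passed in the interaction, where 1505 of all 13212 genes tested did.

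Mylk3, the cardiac kinase of Myl2 (chromosome 8, 85324303 to 85386345, minus strand), had the highest level per length of the 4 kinases in every group. The normalised values were 5168, 5422, 5613 and 6222 in TAC+JP2NT hearts, against 7732, 7657 and 6861 in Sham+JP2NT hearts. All 4 TAC+JP2NT libraries were below all 3 Sham+JP2NT libraries. The log2 difference was -0.38 ± 0.123 (SE), a 1.3-fold lower level, with a limma adjusted p of 0.0299. The call was lost without Sham+JP2NT replicate 3 (adjusted p 0.0733), without TAC+JP2NT replicate 1 (0.0686) and without TAC+JP2NT replicate 2 (0.0583). Under GFP the values were 6107, 6111, 8393 and 6435 in TAC hearts, against 5566, 6386 and 6697 in Sham hearts. These groups overlapped, replicate 3 of TAC+GFP being far above the rest. The log2 difference was 0.11, with a 95% interval of -0.12 to 0.34 and a limma adjusted p of 0.409. The interaction estimate was -0.49 ± 0.163 (SE) on the log2 scale, with a limma adjusted p of 0.263 and an unadjusted p of 0.00919.

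Markers of cardiomyocytes, the cells in which Mylk3 is known to be expressed, were read beside it. Of 10 such markers, 4 were lower and 1 higher in TAC hearts under each vector. Among all genes tested, 15.8% were called lower and 16.1% higher under JP2NT, and 24.8% lower and 23.3% higher under GFP. The summed normalised level of the 10 markers was 517200 to 714300 in TAC+JP2NT, 874400 to 885900 in Sham+JP2NT, 497900 to 576700 in TAC+GFP and 855000 to 889200 in Sham+GFP. Much of the difference between these sums was Myh6, the fast myosin heavy chain gene of the adult mouse heart, which averaged 233200 in TAC+JP2NT, 486900 in Sham+JP2NT, 169400 in TAC+GFP and 473800 in Sham+GFP. Without it the other 9 summed to 333900 to 378200 in TAC+JP2NT, 388900 to 392500 in Sham+JP2NT, 351900 to 374400 in TAC+GFP and 389100 to 395300 in Sham+GFP. The median log2 difference of the 10 was -0.18 under JP2NT and -0.09 under GFP, with 0.004 and -0.005 over all genes. None of these markers was at 0 in any group. Their part in the Mylk3 and Mylk4 values was not tested.

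Mylk, the smooth muscle and non-muscle kinase (chromosome 16, 34745210 to 35002420, plus strand), was lower with overload under GFP. Normalised values were 271.7, 320.2, 299.5 and 342.1 in TAC+JP2NT hearts, against 398.5, 429.9 and 374.9 in Sham+JP2NT hearts. Under GFP they were 254.6, 272, 265.4 and 179.2 in TAC hearts, against 378.1, 417.3 and 404.2 in Sham hearts. TAC libraries were below sham libraries under both vectors, with no overlap. Under GFP the log2 difference was -0.74 ± 0.129 (SE), a 1.67-fold lower level, with a limma adjusted p of 0.000316. Under JP2NT it was -0.36 ± 0.146 (SE), with a limma adjusted p of 0.0743, which missed the threshold. The interaction estimate was 0.38, with a 95% interval of -0.04 to 0.79.

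Cells of the vessel wall hold much Mylk in the heart, and their markers were read as well. Of 8 smooth muscle markers, 3 were lower and 1 higher in TAC+JP2NT against Sham+JP2NT hearts, and 4 were lower in TAC+GFP against Sham+GFP hearts. Their summed normalised level was 5109 to 5816 in TAC+JP2NT, 6578 to 6692 in Sham+JP2NT, 5086 to 5853 in TAC+GFP and 6923 to 7233 in Sham+GFP. Of 7 pericyte markers, 2 were lower under JP2NT and 5 under GFP, with sums of 12300 to 15100 in TAC+JP2NT, 15770 to 16810 in Sham+JP2NT, 9728 to 11480 in TAC+GFP and 15100 to 16030 in Sham+GFP. Much of the difference between the pericyte sums was a single gene, Abcc9. It averaged 3229 in TAC+JP2NT, 5137 in Sham+JP2NT, 2172 in TAC+GFP and 4372 in Sham+GFP. The median log2 difference of the 7 was -0.24 under JP2NT and -0.47 under GFP. Of all genes tested, 15.8% were called lower and 16.1% higher under JP2NT, and 24.8% lower and 23.3% higher under GFP. No marker of either list was at 0. Their part in the Mylk result was not tested, and in bulk tissue fewer cells of a type cannot be told apart from less RNA per cell. An antisense gene that overlaps Mylk exons, E130310I04Rik, had deposited values of 22.6 to 33.2 in TAC+JP2NT, 33.2 to 45.3 in Sham+JP2NT, 18.4 to 30.2 in TAC+GFP and 31.5 to 49.3 in Sham+GFP. The libraries are stranded, but whether the counting used strand is not given in the sources used here, so reads of the pair may not be separated.

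Mylk2, the skeletal muscle kinase (chromosome 2, 152911352 to 152923068, plus strand), was at the edge of detection. Normalised values came to 2.679, 2.805, 4.277 and 3.947 in TAC+JP2NT hearts, against 0, 0 and 1.321 in Sham+JP2NT hearts. Under GFP they were 6.123, 9.944, 6.173 and 10.9 in TAC hearts, against 2.041, 4.708 and 2.57 in Sham hearts. TAC libraries were above sham libraries of the same vector without overlap, but these values stand for about 3 to 4 reads in TAC+JP2NT libraries, 0 to 1 in Sham+JP2NT, 6 to 11 in TAC+GFP and 2 to 4 in Sham+GFP. With no filter on low values (18188 genes), the log2 difference was 1.52 under JP2NT with a limma adjusted p of 0.0197, and 1.19 under GFP with a limma adjusted p of 0.022. At so few reads these differences depend on the 1 that was added before taking logs. Of 10 skeletal muscle markers, 4 passed the filter, with a median log2 difference of -1.29 under JP2NT and -0.71 under GFP. Myl1, an essential light chain gene also of atrial muscle, was called higher with overload under both vectors. Atp2a1, a calcium pump gene, averaged 6.05 in TAC+JP2NT, 18.25 in Sham+JP2NT, 5.175 in TAC+GFP and 10.12 in Sham+GFP. It passed the filter mainly through sham libraries, so its call, lower under JP2NT, is not read. The remaining markers that passed, Tnni2 and Pvalb, had lower means in TAC hearts under both vectors and were not called. Tnni2 averaged 7.355 in TAC+JP2NT, 13.13 in Sham+JP2NT, 4.815 in TAC+GFP and 10.47 in Sham+GFP. Pvalb averaged 3.54, 14.15, 3.673 and 4.519 in the same groups. The summed level of the 10 markers was 727.5 to 1230 in TAC+JP2NT, 493.9 to 548.3 in Sham+JP2NT, 927.1 to 1075 in TAC+GFP and 553.6 to 582.9 in Sham+GFP, most of it from Myl1. Of the skeletal myosin heavy chains, Myh4 was at 0 in every library, Myh1 never exceeded 2.054 and Myh2 never exceeded 3.085. Tnnt3, the fast skeletal troponin T gene, averaged 2.445 in TAC+JP2NT, 1.816 in Sham+JP2NT, 8.918 in TAC+GFP and 1.857 in Sham+GFP, below the filter. The part of these markers in the Mylk2 values was not tested.

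Per kilobase of principal transcript, the kinases kept the order Mylk3, Mylk4, Mylk and Mylk2 in all 4 groups. Mylk3 stood at 1517 ± 121 in TAC+JP2NT, 1969 ± 160 in Sham+JP2NT, 1830 ± 298 in TAC+GFP and 1682 ± 158 in Sham+GFP (normalised value per kilobase, SD, n = 4, 2, 4 and 3). Mylk4 stood at 362 ± 38.6, 804 ± 5.44, 193 ± 10.7 and 796 ± 13.9 in the same groups. Mylk lay between 31 and 51.1, and Mylk2 between 0.224 and 2.81. The gaps between neighbours in this order exceeded the SDs in each group, and the order was the same over the length of all annotated exons. Within a library, the ratio of the Mylk4 to the Mylk3 normalised value was 0.35 to 0.374 in TAC+JP2NT and 0.574 to 0.649 in Sham+JP2NT. It was 0.121 to 0.188 in TAC+GFP and 0.673 to 0.798 in Sham+GFP. The ratio was tightest in TAC+JP2NT, with a mean of 0.359 ± 0.0109 (SD, n = 4), and no group overlapped another. As Mylk4 enters it, the ratio has no test.

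**Figure D2:**
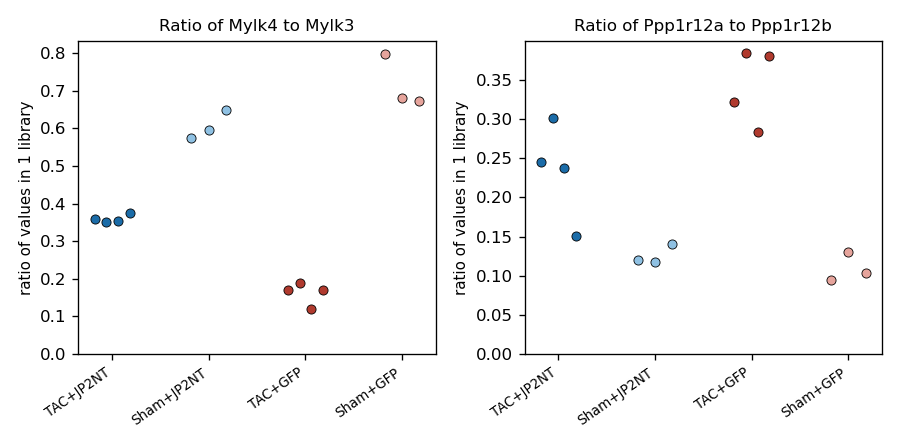
Ratio of 2 normalised values within each library (linear scale, from 0), a point for each library, with Mylk4 to Mylk3 on the left and Ppp1r12a to Ppp1r12b on the right, groups in the order TAC+JP2NT, Sham+JP2NT, TAC+GFP, Sham+GFP. TAC+JP2NT libraries span 0.35 to 0.374 on the left and 0.151 to 0.301 on the right, where TAC+GFP libraries span 0.121 to 0.188 and 0.283 to 0.385.

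Ppp1r12a, which encodes the targeting subunit MYPT1 (chromosome 10, 108162193 to 108284475, plus strand), was higher in overloaded hearts under both vectors. Its normalised values were 338.8, 397.6, 332.2 and 236 in TAC+JP2NT hearts, against 192.7, 165.4 and 207.9 in Sham+JP2NT hearts. Under GFP they were 429.9, 478.4, 398.8 and 415.1 in TAC hearts, against 138.8, 192.7 and 163.9 in Sham hearts. Every TAC library was above every sham library, and TAC+JP2NT replicate 4 was nearest to them. The log2 difference was 0.73 ± 0.171 (SE) under JP2NT, a 1.66-fold higher level, with a limma adjusted p of 0.00559. Under GFP it was 1.39 ± 0.151 (SE), a 2.61-fold higher level, with a limma adjusted p of 6.44e-06. Both calls held in all 22 alternatives. The interaction estimate was -0.66, with a 95% interval of -1.15 to -0.17 and a limma adjusted p of 0.283 over all genes.

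Ppp1r12b, the gene of MYPT2 (chromosome 1, 134754658 to 134955942, minus strand), moved little. Normalised values stood at 1381, 1323, 1394 and 1566 in TAC+JP2NT hearts, against 1601, 1419 and 1482 in Sham+JP2NT hearts. These groups overlapped, and the log2 difference was -0.08, with a 95% interval of -0.28 to 0.12 (limma adjusted p 0.545). Under GFP the values were 1335, 1241, 1407 and 1093 in TAC hearts, against 1460, 1478 and 1599 in Sham hearts. All 4 TAC+GFP libraries were below the sham libraries, with a log2 difference of -0.26 ± 0.0837 (SE), a 1.2-fold lower level, and a limma adjusted p of 0.0195. The call was lost without Sham+GFP replicate 3 (adjusted p 0.0888) and without TAC+GFP replicate 4 (0.0532).

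The proportion of the 2 targeting subunits was compared within libraries, where each TAC library had a higher ratio than every sham library of its vector. Within a library, the ratio of the Ppp1r12a to the Ppp1r12b normalised value averaged 0.234 ± 0.062 in TAC+JP2NT and 0.129 ± 0.0153 in Sham+JP2NT (SD, n = 4 and 2). Under GFP it averaged 0.343 ± 0.0488 in TAC hearts and 0.109 ± 0.0186 in Sham hearts (SD, n = 4 and 3). Two-sided exact permutation tests gave p = 0.2 under JP2NT, where the smallest p possible was 0.0667, and p = 0.0286 under GFP, the smallest possible. These and the tests of the vectors, exact p = 0.0571 in TAC hearts and 0.3 in sham hearts, were 4 comparisons of this ratio. Adjusted over them by Benjamini-Hochberg, the exact p was 0.267 under JP2NT, 0.114 under GFP, 0.114 between TAC hearts and 0.3 between sham hearts. Per kilobase of principal transcript, Ppp1r12b remained above Ppp1r12a in every group, at 391 against 97.2 in TAC+JP2NT, 413 against 57.7 in Sham+JP2NT, 350 against 128 in TAC+GFP and 418 against 49.2 in Sham+GFP.

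Ppp1cb, the catalytic subunit that the phosphatase shares with other PP1 complexes (chromosome 5, 32458843 to 32517433, plus strand), was higher in overloaded hearts under GFP. The normalised values stood at 4095, 4042, 3783 and 3787 in TAC+JP2NT hearts, against 3310, 3491 and 3545 in Sham+JP2NT hearts. Under GFP they were 4191, 4804, 4238 and 3912 in TAC hearts, against 3234, 3234 and 3370 in Sham hearts. TAC libraries were above sham libraries under both vectors. The log2 difference was 0.18 ± 0.0773 (SE) under JP2NT, with a limma adjusted p of 0.0953, and 0.38 ± 0.0682 (SE) under GFP, a 1.3-fold higher level, with a limma adjusted p of 0.000371. The interaction estimate was -0.21, with a 95% interval of -0.43 to 0.01.

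Myl2 itself, the substrate (chromosome 5, 122100951 to 122113472, plus strand), did not pass the threshold in any comparison. Its values, normalised, were 122400, 101900, 85060 and 123700 in TAC+JP2NT hearts, against 114200, 115200 and 120200 in Sham+JP2NT hearts. Under GFP they were 98800, 95100, 107200 and 109700 in TAC hearts, against 124600, 119800 and 122700 in Sham hearts. The JP2NT groups overlapped, with TAC libraries on both sides of the sham libraries, while the GFP groups did not. The log2 difference was -0.13 under JP2NT, with a 95% interval of -0.43 to 0.17, and -0.26 under GFP, with a 95% interval of -0.52 to 0.01 (limma adjusted p 0.503 and 0.102). These values measure Myl2 RNA, and the phosphorylation of the protein was not measured.

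**Figure D3:**
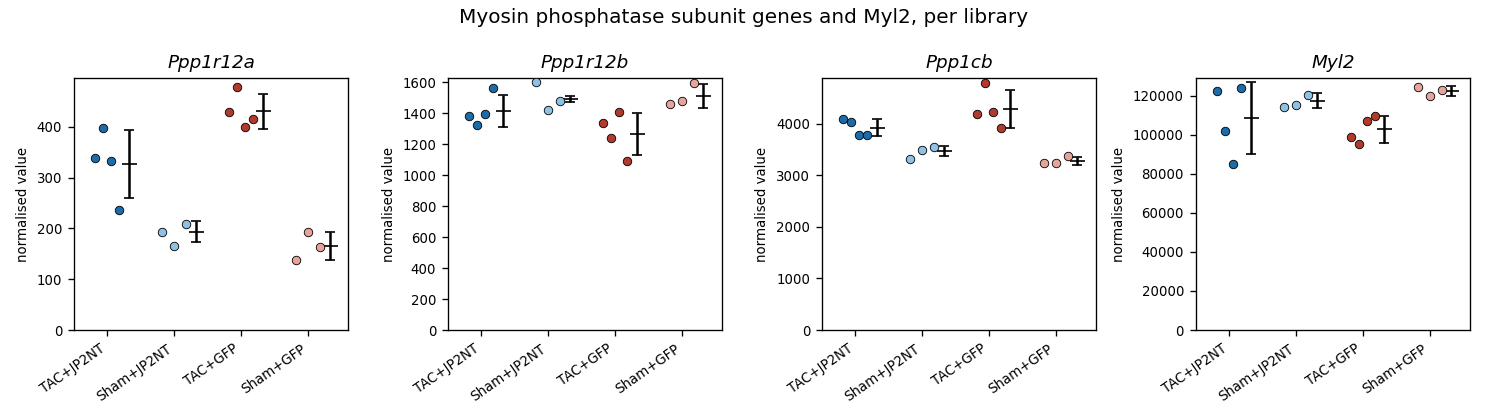
Normalised values (linear scale, from 0) of the phosphatase genes Ppp1r12a, Ppp1r12b and Ppp1cb and of Myl2, with a point for each library, the group mean as a dash and the SD as a bar, groups in the order TAC+JP2NT, Sham+JP2NT, TAC+GFP, Sham+GFP. TAC+JP2NT libraries span 236 to 397.6 for Ppp1r12a, and TAC+GFP libraries 398.8 to 478.4, above all sham libraries at 138.8 to 207.9.

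Set directly against TAC+GFP hearts, TAC+JP2NT hearts showed no difference past the limma threshold in the 6 tested members, where 6.15% of all genes were called, 2.75% higher and 3.4% lower. At an unadjusted p under 0.05, 3 of the 6 passed, where 2962 of all 13212 genes tested did. Mylk averaged 308.4 ± 30 in TAC+JP2NT and 242.8 ± 43 in TAC+GFP (SD, n = 4 each), with a log2 difference of 0.36 and a 95% interval of 0.10 to 0.61 (limma adjusted p 0.087). Ppp1r12a averaged 326.2 ± 66.9 in TAC+JP2NT and 430.5 ± 34.3 in TAC+GFP (SD, n = 4 each), with a log2 difference of -0.42 and a 95% interval of -0.72 to -0.12 (limma adjusted p 0.087). Mylk3 averaged 5607 ± 449 in TAC+JP2NT and 6762 ± 1100 in TAC+GFP (SD, n = 4 each), with a log2 difference of -0.26 and a 95% interval of -0.47 to -0.05 (limma adjusted p 0.133). For Mylk3, TAC+GFP replicate 3 stood at 8393, against 6107 to 6435 in the rest of its group. Over the 22 alternatives its log2 difference between TAC hearts ranged from -0.34 to -0.15. The intervals of Ppp1r12b (0.00 to 0.33), Ppp1cb (-0.26 to 0.01) and Myl2 (-0.18 to 0.31) reached or included 0. Factors computed from the deposited values by median of ratios were 1.03 in every GFP library and 0.968 to 0.972 in the JP2NT libraries, so comparisons across vectors rest on a joint rescaling. With the values as deposited, Mylk3 (adjusted p 0.0431) and Ppp1r12a (0.0355) passed the threshold, both lower in TAC+JP2NT.

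In Sham+JP2NT against Sham+GFP hearts none of the 6 members passed the limma threshold, nor did any other gene (0% called), while 581 genes passed an unadjusted p under 0.05, none of them one of the 6 tested members. The largest estimates were 0.24 for Ppp1r12a, with a 95% interval of -0.15 to 0.62, and 0.23 for Mylk3, with an interval of -0.05 to 0.51, both higher in Sham+JP2NT on the log2 scale. With n = 2 in Sham+JP2NT and 3 in Sham+GFP, the intervals of both genes include differences of 0.38, the size of the overload difference of Mylk3 under JP2NT.

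**Figure D4:**
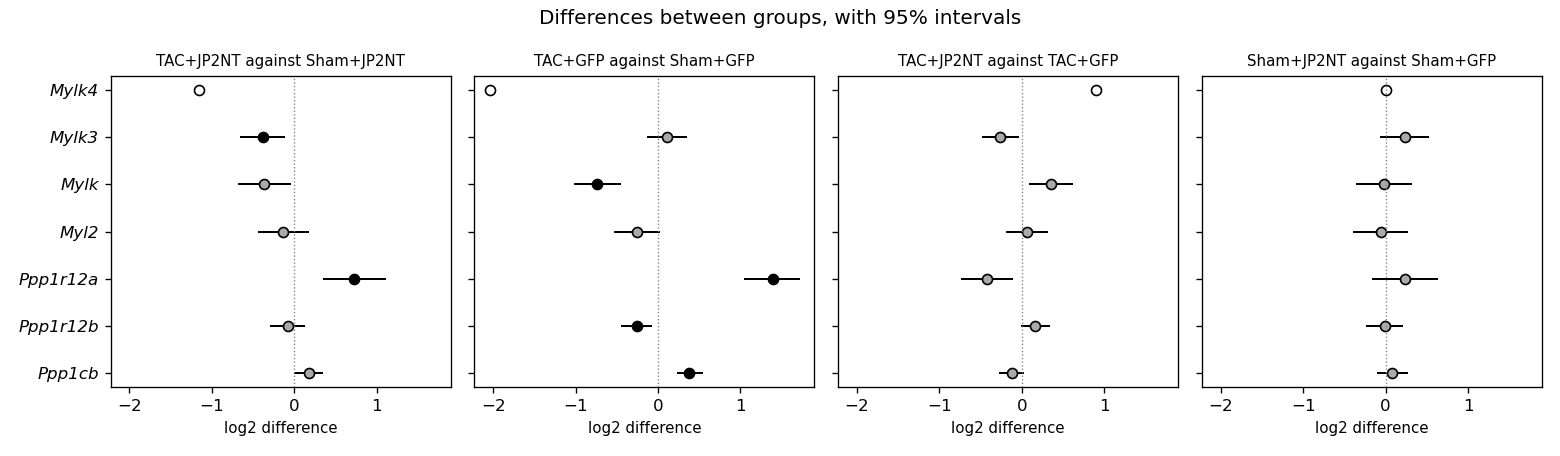
Log2 differences with 95% intervals for the 6 tested members in 4 comparisons, filled black where the limma adjusted p is under 0.05 and grey where it is not. Mylk4 is drawn as an open point without an interval because it was chosen by these values, and it lies at -1.16 for TAC+JP2NT against Sham+JP2NT, -2.04 for TAC+GFP against Sham+GFP, 0.90 for TAC+JP2NT against TAC+GFP and 0.01 for Sham+JP2NT against Sham+GFP.

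Other genes of the phosphatase and its control were read from lists named for their function. Among 8 phosphatase subunits and relatives, 2 were higher and 0 lower in TAC+JP2NT against Sham+JP2NT hearts, and 2 higher and 1 lower in TAC+GFP against Sham+GFP hearts. The list's median log2 difference was 0.05 under JP2NT and -0.02 under GFP, with 0.004 and -0.005 over all genes, of which 31.9% and 48.1% were called. The one call beyond the members was Ppp1r16b, which encodes a membrane-bound relative of MYPT1 best known from endothelium. It averaged 263.4 ± 45.7 in TAC+JP2NT, 178.9 ± 4.24 in Sham+JP2NT, 160 ± 31.7 in TAC+GFP and 199.8 ± 9.91 in Sham+GFP (SD, n = 4, 2, 4 and 3). It was higher in TAC+JP2NT than in Sham+JP2NT, by 0.54 ± 0.177 (log2, SE, limma adjusted p 0.0315), and than in TAC+GFP, by 0.72 ± 0.145 (limma adjusted p 0.011). Without Sham+JP2NT replicate 3, TAC+JP2NT replicate 1 or TAC+JP2NT replicate 2, 1 gene of the list was called in TAC+JP2NT against Sham+JP2NT, so that the call of Ppp1r16b was lost while that of Ppp1r12a held. With only the groups compared, 0 genes of the list were called in TAC+JP2NT against TAC+GFP. Of 7 endothelial markers, 3 were lower in TAC+JP2NT against Sham+JP2NT hearts, where 15.8% of all genes were called lower. In TAC+JP2NT against TAC+GFP hearts 1 was lower, where 3.4% of all genes were, and none was higher in either comparison. The summed level of these markers was 9545 to 10850 in TAC+JP2NT, 11590 to 12400 in Sham+JP2NT, 10290 to 12010 in TAC+GFP and 12420 to 13020 in Sham+GFP. Their part in the Ppp1r16b values was not tested.

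Of 4 genes of phosphatase inhibitor proteins, 3 were tested, and none was called between TAC and sham under either vector. Ppp1r14c, the gene of an inhibitor present in brain and heart, averaged 2001 ± 63.5 in TAC+JP2NT and 1615 ± 240 in TAC+GFP (SD, n = 4 each). It passed the threshold in that comparison, with a log2 difference of 0.32 ± 0.0887 (SE, limma adjusted p 0.045), but no inhibitor gene was called in 13 of 22 alternatives. One TAC+GFP library lay far below the other 3, which covered 1702 to 1789.

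Genes of the RhoA and ROCK pathway, which restrains the phosphatase, included several that rose with overload, both ROCK genes among them. With overload, 4 of 10 rose and 1 fell under JP2NT, and 6 rose and 1 fell under GFP. The median log2 difference was 0.25 under JP2NT and 0.20 under GFP, and in all genes 16.1% and 23.3% were called higher. Without Sham+JP2NT replicate 3, the number called under JP2NT was 2 in place of 5. Under GFP it was below 7 in 13 of 22 alternatives, the lowest being 5. Rock2, the ROCK isoform prominent in heart, averaged 1918 ± 433 in TAC+JP2NT, 1105 ± 46.1 in Sham+JP2NT, 2195 ± 254 in TAC+GFP and 1155 ± 63.1 in Sham+GFP (SD, n = 4, 2, 4 and 3). Its log2 difference was 0.76 ± 0.169 under JP2NT and 0.92 ± 0.149 under GFP (SE, limma adjusted p 0.00404 and 0.000174). Rock1 was higher by 0.61 under JP2NT and by 0.76 under GFP, and the small GTPase gene Rhoc by 0.53 under JP2NT and by 0.91 under GFP (log2). Arhgef12, the gene of a RhoA exchange factor, was higher by 0.28 under JP2NT and by 0.17 under GFP, while Arhgef11, another exchange factor, was lower by a log2 difference of -0.34 under JP2NT and -0.48 under GFP. Rhoa (0.23) and Rnd3 (0.34) were called higher under GFP, and stood at 0.16 and 0.30 under JP2NT. Rnd3 encodes an antagonist of this pathway, and the counts above include it. None of the 10 was called between the vectors in TAC hearts or in the interaction.

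Beyond the 4 named kinases, 12 genes encode other kinases known to phosphorylate regulatory light chains, 2 of them being Rock1 and Rock2. Of the 12, 5 were higher and 0 lower under JP2NT and 4 higher and 1 lower under GFP, with median log2 differences of 0.29 and 0.31. Over all genes, 16.1% were called higher and 15.8% lower under JP2NT, and 23.3% higher and 24.8% lower under GFP, with medians of 0.004 and -0.005. Pak3, a p21-activated kinase gene at low level, averaged 7.846 ± 2.94 in TAC+JP2NT, 1.539 ± 0.31 in Sham+JP2NT, 19.16 ± 8.36 in TAC+GFP and 3.955 ± 0.901 in Sham+GFP (SD, n = 4, 2, 4 and 3). It reached 10 in every TAC+GFP library and in no other, so it passed the filter through that group alone, and its calls, which the counts above include, are not read. Cdc42bpa and Pak2 were called higher under JP2NT, by 0.31 and 0.26, and stood at 0.16 and 0.12 under GFP. Pak1 was called higher under GFP, by 0.78, with 0.38 under JP2NT. Dapk1, a death-associated protein kinase gene, was called lower under GFP, at -0.34, and stood at -0.34 under JP2NT as well (limma adjusted p 0.0537). No gene of this list was called in the interaction. Without Sham+JP2NT replicate 3, 2 were called under JP2NT, and without Sham+GFP replicate 2 or replicate 3, 3 were called under GFP. Dapk3, the gene of zipper-interacting kinase, averaged 176.1 ± 17.9 in TAC+JP2NT and 227.1 ± 27.3 in TAC+GFP (SD, n = 4 each), a log2 difference of -0.36 (limma adjusted p 0.0489), but no gene of this list was called in 16 of 22 alternatives.

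Genes of kinases related to the myosin light chain kinases, in titin-like giant proteins or in the calmodulin-dependent family, moved in both directions. Of 11 tested, 3 were higher and 4 lower under JP2NT, and 2 higher and 4 lower under GFP, with median log2 differences of -0.07 and 0.09, where 31.9% and 48.1% of all genes were called. Camk2a averaged 575.2 ± 101 in TAC+JP2NT, 1000 ± 70.8 in Sham+JP2NT, 435.9 ± 42.5 in TAC+GFP and 966.9 ± 11.4 in Sham+GFP (SD, n = 4, 2, 4 and 3). Its log2 difference between TAC and sham was -0.81 ± 0.125 under JP2NT and -1.15 ± 0.11 under GFP (SE, limma adjusted p 0.000386 and 2.19e-06). It was higher in TAC+JP2NT than in TAC+GFP by 0.39 (limma adjusted p 0.0371), though no gene of this list was called there in 8 of 22 alternatives. Camk2b was lower by a log2 difference of -0.60 under JP2NT and -0.83 under GFP, and Speg, the gene of a striated muscle kinase of the junctional membrane, by -0.41 and -0.64 under the same vectors. Ttn, whose giant product titin holds a kinase domain, was higher by 0.38 under JP2NT and 0.56 under GFP. Without Sham+JP2NT replicate 3, 3 of the 11 were called under JP2NT in place of 7.

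The other light chains showed where the remaining substrates stood. Of 8 regulatory light chain genes, 5 were tested, and Myl12a, the non-muscle form, was higher under both vectors, where 16.1% and 23.3% of all genes were called higher. It averaged 12050 ± 439 in TAC+JP2NT, 8193 ± 14.7 in Sham+JP2NT, 13730 ± 815 in TAC+GFP and 8468 ± 227 in Sham+GFP (SD, n = 4, 2, 4 and 3). The log2 difference was 0.56 ± 0.0718 under JP2NT and 0.70 ± 0.0633 under GFP (SE, limma adjusted p 0.000124 and 1.51e-06). Its sister gene Myl12b averaged 587.5 ± 52.2 in TAC+JP2NT and 563.7 ± 41.4 in Sham+JP2NT, and the near-identical copies may share reads. Myl9, the smooth muscle form, was called lower under JP2NT, by a log2 difference of -0.63 ± 0.222 (SE, limma adjusted p 0.0426). A single gene of this list was called under JP2NT in 8 of the 22 alternatives. Myl9 stood at -0.43 ± 0.196 (log2, SE) under GFP, with a limma adjusted p of 0.0824, which missed the threshold. The interaction estimate of Myl9 was -0.2, with a limma adjusted p of 0.85.

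Of 5 essential light chain genes, the partners of the regulatory chains on myosin, 2 were higher under JP2NT and 3 under GFP, where 16.1% and 23.3% of all genes were called higher. Myl6, the smooth muscle and non-muscle form, was higher by 0.60 under JP2NT and 0.71 under GFP (log2, limma adjusted p 0.000213 and 4.27e-06). Myl1, of fast skeletal and atrial muscle, was higher by 0.88 under JP2NT and 0.83 under GFP (limma adjusted p 0.000968 and 0.000205). Myl6b was called under GFP at 1.11 ± 0.322 (SE, limma adjusted p 0.0104), with a single library well above the others. Myl3, the ventricular essential chain, was not called under either vector.

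The atrial light chains varied by library more than by group. Myl7 had normalised values of 278.4, 2655, 248.6 and 3180 in TAC+JP2NT, 2218, 2279 and 1295 in Sham+JP2NT, 580.3, 269.9, 820.7 and 1370 in TAC+GFP, and 151.2, 756.8 and 1190 in Sham+GFP. TAC+JP2NT replicates 2 and 4 were high and replicates 1 and 3 low, and the groups overlapped. Myl4, the atrial essential chain, and Sln, another gene of atrial muscle, were high in the same 2 TAC+JP2NT libraries, Myl4 at 3859 and 5786 and Sln at 945.8 and 1269. Myl7, Myl4 and Sln were not called in any comparison. In replicates 2 and 4 Mylk4 stood at 1896 and 2328 and Ppp1r12a at 397.6 and 236, and in replicates 1 and 3 Mylk4 stood at 1857 and 1979 and Ppp1r12a at 338.8 and 332.2. The part of the atrial genes in these values was not tested.

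**Figure D5:**
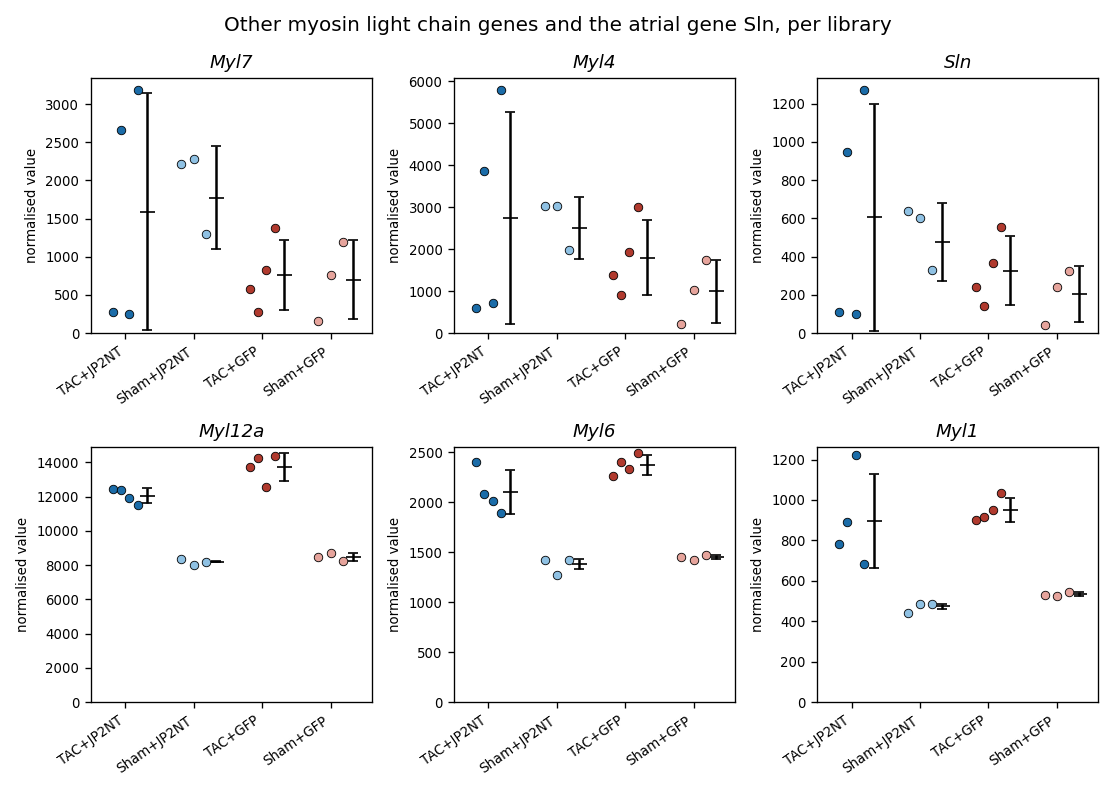
Normalised values (linear scale, from 0) of the light chain genes Myl7, Myl4, Myl12a, Myl6 and Myl1 and of the atrial gene Sln, with a point for each library, the group mean as a dash and the SD as a bar, groups in the order TAC+JP2NT, Sham+JP2NT, TAC+GFP, Sham+GFP. Myl7, Myl4 and Sln are high in 2 of the 4 TAC+JP2NT libraries (Myl7 at 2655 and 3180), and Myl12a averages 12050 in TAC+JP2NT and 13730 in TAC+GFP, above 8193 and 8468 in the sham groups of the same vectors.

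Over the 13 samples, the genes whose log2 values were most like those of Mylk4 were Ipo13 and Dnajc28 (Pearson r 0.988 each), Aldh5a1 (0.986), Plxnb1 (0.984) and Mrgprh (0.983). Among the members, Mylk had r 0.891 with Mylk4, Ppp1r12a -0.944 and Ppp1cb -0.892. For Mylk3, whose r with Mylk4 was 0.043, the nearest genes were Vwf (0.945), A2m (0.878), Mtus2 (0.873), Klhl13 (0.87) and Miip (0.851). For Myl2 they were Nudt8 (0.945), Myl3 (0.926), Mrps21 (0.924), Naa10 (0.905) and Ndufa3 (0.904). These samples share the group structure, so that any 2 genes changed by overload are correlated over them, and r is a description.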

How the data were processed

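Stranded paired-end libraries of polyadenylated ventricular RNA were sequenced on an Illumina instrument, per the labels' protocols. FastQC 1.0.0, STAR 2.6.1a and Salmon with build mm10 are named in the submitters' processing notes, and no label or header names the annotation, the strand setting or the program used for scaling. What the authors deposited is a signal, taken from the values to be scaled gene counts. Factors recomputed by median of ratios were 1.03 in the 7 GFP and 0.968 to 0.972 in the 7 JP2NT libraries, as separate scaling of each vector's libraries would leave them, but no source used here states that step. Only 1.11 to 2.8% of values lay within 0.001 of a whole number of reads, so whole reads were not recovered and no count model was used. Dates stood in place of 26 gene names and 2 names occurred more than once.

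Values were rescaled jointly by unweighted trimmed means of M-values (30% of ratios and 5% of levels trimmed), which gave factors of 1.02 to 1.03 in GFP and 0.97 to 0.976 in JP2NT libraries. After adding 1 and taking log2, genes that reached 10 in 3 samples or more were fitted with limma-trend (limma 3.58.1, R 4.3.3), with a mean per group, 1 shared spread and 9 residual degrees of freedom. Folds are on this log2(value + 1) scale, and tests are two-sided. The median SD of log2 values was 0.176 in TAC+JP2NT, 0.0835 in Sham+JP2NT, 0.158 in TAC+GFP and 0.107 in Sham+GFP, so 1 shared spread understates the error in TAC hearts for many genes and overstates it in sham hearts. The fit was also run on simulated data with the same spread in all groups and independent libraries. That run cannot show how the fit behaves with unequal spreads or near-identical libraries. Sham+JP2NT replicates 1 and 2 were averaged. The alternatives were other scalings, a pseudocount of 5, no filter, 14 separate libraries, a spread per group, only the groups compared, a replicate block, and leaving out each library.

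The members and the gene lists were chosen with earlier results of these data known. The text names the 8 members, called genes of the lists (up to 6 for each list and comparison), the 5 genes most correlated with Mylk4, Mylk3 and Myl2, and Nppa, Myh6, Myh7 and Jph2. Myl7, Myl4, Sln, Myl3, Myl12b, Tnnt3, Tnni2, Pvalb and Abcc9 were named after their values were seen. Gene positions are from GENCODE M21 (mm10). Lists of fibroblast, macrophage and blood markers were also read. In TAC+JP2NT against Sham+JP2NT hearts, 2 of 8, 0 of 8 and 1 of 4 were higher, and 1, 0 and 0 lower. In TAC+GFP against Sham+GFP hearts, 4 of 8, 0 of 8 and 3 of 4 were higher, and 1, 1 and 0 lower. The shares over all genes were 16.1% higher and 15.8% lower under JP2NT, and 23.3% higher and 24.8% lower under GFP. One of the gene lists is not reported here.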

Additional observations from a re-analysis of the deposited data

Results flagged for a closer look

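In groups of 4 libraries, 46 genes were checked in TAC+JP2NT and in TAC+GFP for a single library set apart from the other 3, and 6 of 92 sets were singled out, where chance gives about 1 in 20. Mylk3 had a normalised value of 8393 in TAC+GFP replicate 3, against 6107 to 6435 in the other 3 libraries. Camk2a had 725.6 in TAC+JP2NT replicate 4, against 510.2 to 534.2, and Myh7b, a slow myosin heavy chain gene, had 1000 in the same library, against 561.7 to 635.7. Cdc42bpa had 779.5 in TAC+JP2NT replicate 3, against 642.1 to 662.3. Ppp1r14c had 1260 in TAC+GFP replicate 3, against 1702 to 1789, and Myl6b had 71.77 in TAC+GFP replicate 4, against 33.75 to 36.51.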

How the results depend on the processing

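Of 770 member values over 22 alternatives, 740 were counted as unchanged. Among the tested members, where unchanged means the same direction and side of the threshold, 5 lost a call, 13 gained one and 11 changed sign. For Mylk4, which has no test, unchanged means a shift smaller than the spread within groups, whatever the sign. One Mylk4 value, in sham hearts as deposited, moved beyond that spread, from 0.01 to -0.06. The calls of Ppp1r12a under both vectors, and of Mylk and Ppp1cb under GFP, held in every alternative. The 5 lost calls were those of Mylk3 under JP2NT and Ppp1r12b under GFP given above. The gained calls were of Myl2 under GFP (4 alternatives), Mylk (5) and Ppp1cb (2) under JP2NT, and Mylk3 and Ppp1r12a between TAC hearts as deposited. In the tested members, signs changed only for values near 0: Myl2 in TAC+JP2NT against TAC+GFP was -0.02 as deposited, -0.0022 without TAC+JP2NT replicate 1 and -0.0075 without TAC+JP2NT replicate 4, the range over left-out libraries reaching 0.17. In Sham+JP2NT against Sham+GFP, Mylk was 0.0032 with 14 separate libraries and with the replicate block, 0.01 without Sham+GFP replicate 2, 0.0068 without Sham+JP2NT replicate 1 and 0.05 without Sham+JP2NT replicate 3, and Ppp1r12b was 0.00016 with median-of-ratios factors and 0.03 without Sham+GFP replicate 3 or Sham+JP2NT replicate 2. Numbers of genes called depended more on these choices. In TAC+JP2NT against TAC+GFP, 812 genes (363 higher, 449 lower) became 1417 (226 higher, 1191 lower) as deposited, 412 with a spread per group and 181 with only the groups compared, while 0 between sham groups became 2 with only the groups compared. For the interaction, 10 became 6 with no filter, 127 with 14 separate libraries, 76 with a spread per group and 77 with the replicate block. Leaving out each library gave 5200 to 6698 called genes in TAC+GFP against Sham+GFP, 1870 to 4980 in TAC+JP2NT against Sham+JP2NT, 268 to 1069 between TAC groups, 0 to 1 between sham groups and 0 to 53 for the interaction, the lowest of each TAC comparison being without Sham+GFP replicate 2, Sham+JP2NT replicate 3 and TAC+GFP replicate 2. The causes were not tested. Libraries with the same replicate number did not deviate together (19 pairs, correlations of -0.17 to 0.08), so the numbers do not pair them. Depth limits Mylk2, with at most 11 reads per library.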
